A study of Mus musculus with 6 samples.

Results

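Endothelial cells line the capillaries that run beside every muscle fibre, and 10 genes that mark these cells were followed in whole gastrocnemius (Gas) muscle from WT mice and from mice without miR-92b (M92KO). The genes were chosen by symbol (Pecam1, Cdh5, Kdr, Flt1, Tek, Tie1, Vwf, Emcn, Cldn5 and Esam). The choice was made with earlier results of these data known. All 10 were found among the 34714 gene symbols of the deposited read counts. RNA-seq libraries came from 3 WT and 3 M92KO Gas muscles, each from untreated mice of 8 weeks, and the study describes its knockout animals as males with age-matched C57BL/6 mice as WT. M92KO is a global knockout (C57BL/6JGpt- Mir-92bem22Cd549/Gpt), so miR-92b was missing from the vessels as well as from the muscle fibres. The muscle was sequenced whole, and in such bulk RNA fewer endothelial cells and less of an RNA in each cell cannot be told apart.

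As background, endothelial cells are held together by adherens and tight junctions, which set how easily blood plasma passes into the tissue. Vascular endothelial growth factor (VEGF) from the muscle fibre acts on the receptors Kdr and Flt1 and drives capillary growth, while angiopoietins act through Tek and its partner Tie1 and keep mature vessels quiet. Endurance training is known to raise the capillary density of muscle, and the oxygen and glucose supply of a working fibre depends on these vessels.

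The libraries held between 33160508 and 48209846 counts, with the M92KO libraries all below the WT libraries in size. Values are CPM, the counts scaled per 1000000 of the library size after TMM normalization, whose factors lay between 0.981 and 1.03. The tissue label was checked with 10 muscle fibre genes, whose summed level was between 138885 and 156741 CPM. Acta1, skeletal muscle actin, stood between 25646 and 27457 CPM in the 6 libraries. The 10 endothelial markers summed to 1260, 1342 and 1266 CPM in WT and to 1090, 1316 and 1105 CPM in M92KO muscle, so the groups overlapped in the second M92KO library. Every marker was detected in every library, with between 774 and 11740 counts, far above the floor of 3 counts, which came to at most 0.0916 CPM and covers counting error only.

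None of the 10 endothelial markers differed between M92KO and WT muscle in edgeR's quasi-likelihood test at an adjusted p-value of 0.05. The smallest adjusted p-value among them was 0.258, for Tie1. DESeq2's Wald test gave 0 markers as well, and so did the limma steps of the supplementary methods. Among the 15788 genes tested, edgeR called 0 (0%), DESeq2 called 312 and the limma steps called 42 of 34714. At an unadjusted p-value under 0.05, which is used below as a description only, 2 markers (Tie1 and Flt1) were lower and 0 were higher in M92KO muscle. Of all genes tested, 6.92% were lower and 5.47% were higher by the same rule. The 3 M92KO values lay below the 3 WT values for the same 2 markers and above them for 0, whereas 9.58% of all genes tested lay below and 8.77% above. In the limma steps the split of all genes turned, with 1043 lower and 1244 higher, against 1092 and 863 in edgeR, and the same 2 markers were lower. The fitted log2 fold change was below 0 for 9 of the 10 markers, counting Kdr at a fold of 0.998, with Emcn above 0. That number was 8 with offsets for GC content and length or in thinned libraries, where Kdr turned. With 1 library left out it ran from 7 (first M92KO) to 10 (second M92KO). Of all genes tested, 50% (7897 genes) were below 0. The median of the 10 was -0.15, against 0.00 for all genes tested. Leaving out the second M92KO library moved the number of markers with an unadjusted p-value under 0.05 to 6 and the median to -0.27. The other single libraries moved that number as well, to 4 without the first WT library and to 1 without the second WT, the third WT or the third M92KO library.

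**Figure D1:**
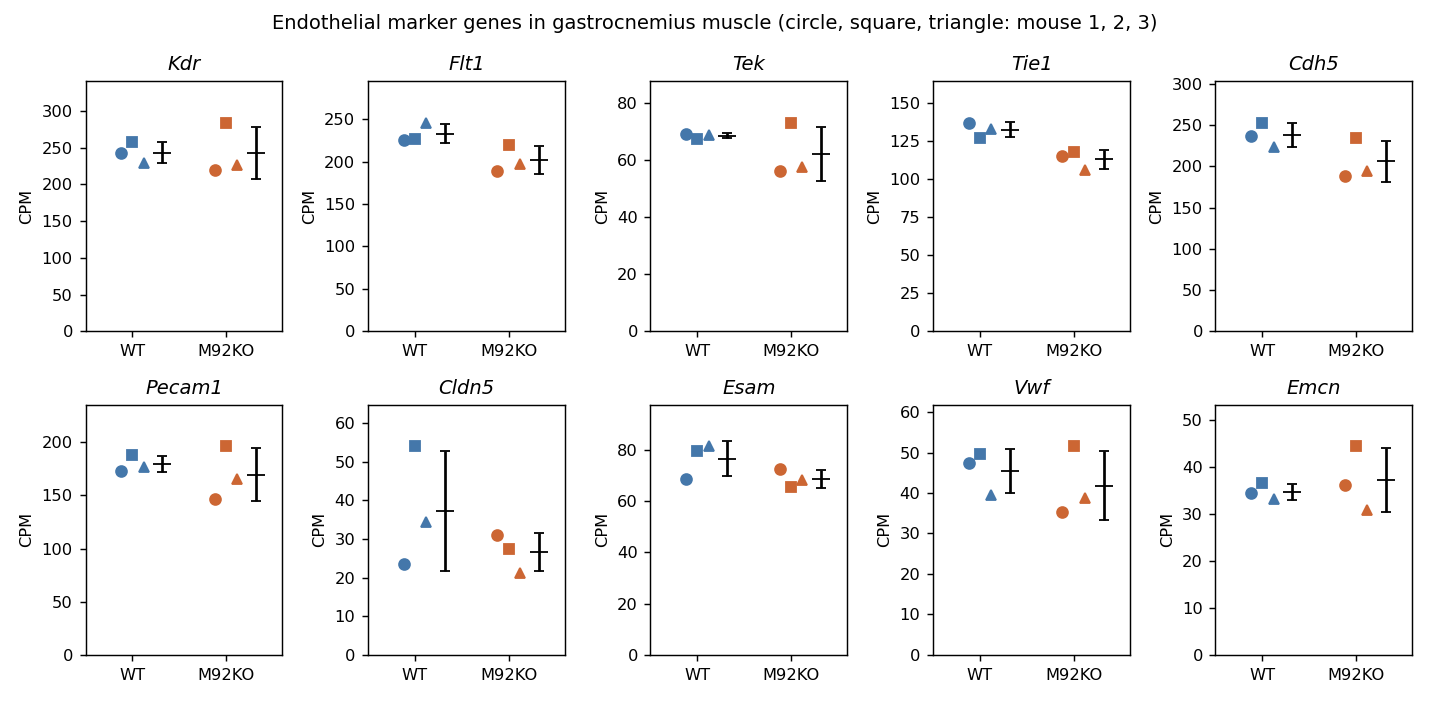
Level of each endothelial marker gene in CPM (vertical axes, starting at 0) in 3 WT (blue) and 3 M92KO (orange) libraries, with black marks for mean and SD. The 2 groups are apart for Flt1 and Tie1 and overlap for the other 8 genes.

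**Figure D2:**
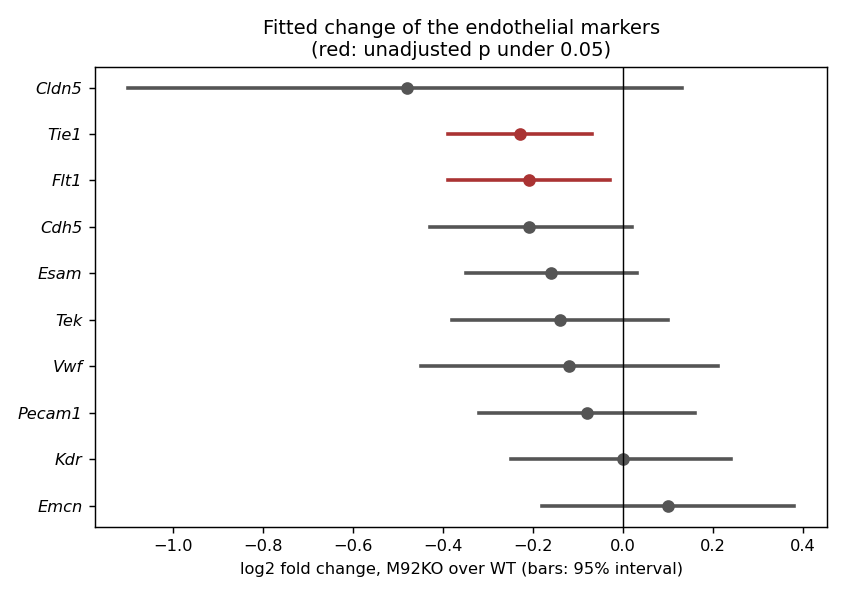
Fitted log2 fold change of M92KO over WT (horizontal axis) for each marker with its 95% interval from edgeR. The intervals of Tie1 and Flt1 lie below 0, those of the other 8 genes span 0, and that of Cldn5 is the widest of the 10.

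Kdr encodes VEGF receptor 2, the main signalling receptor of VEGF-A in endothelium. It stood at 243, 258 and 229 CPM in WT and at 219, 284 and 226 CPM in M92KO muscle. The lowest and the highest of the 6 values were both from M92KO mice. The mean was 243 ± 14.5 CPM (SD, n = 3) for WT mice. For M92KO mice it was 243 ± 35.7 CPM (SD, n = 3), with a wider spread. The 95% interval of the log2 fold change ran from -0.25 to 0.24 around a value of 0.00 (adjusted p = 0.994 from edgeR).

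Flt1 encodes VEGF receptor 1, which binds VEGF tightly, signals weakly and exists also as a soluble decoy. It stood at 226, 227 and 246 CPM in WT and at 189, 220 and 197 CPM in M92KO muscle. Every M92KO value was under every WT value, although only by a small distance between the second M92KO mouse and the first WT mouse. The fitted fold was 0.866 (log2 fold change -0.21, standard error 0.079, 95% interval -0.39 to -0.03, adjusted p = 0.352 from edgeR). With 1 library left out, the unadjusted p-value stayed under 0.05 in 3 of 6 cases, and was above it without the second WT, the third WT or the third M92KO library.

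Reads of the receptor pair were also set against each other, a ratio chosen after the values had been seen. The ratio of Kdr to Flt1 CPM was 1.07, 1.14 and 0.931 in WT and 1.16, 1.29 and 1.15 in M92KO muscle. All 3 M92KO ratios were above all 3 WT ratios, and the share of gene pairs set apart in this way was not counted. An exact permutation test gave p = 0.1, the smallest value possible with 3 against 3 libraries. The ratio of Cdh5 to Pecam1 ran from 1.26 to 1.37 in WT and from 1.18 to 1.28 in M92KO muscle, so the groups overlapped.

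Tie1 encodes an orphan receptor that pairs with Tek and modulates angiopoietin signalling. It stood at 137, 127 and 133 CPM in WT and at 115, 118 and 106 CPM in M92KO muscle, with the groups apart. The fitted fold was 0.851, with a log2 fold change of -0.23, a standard error of 0.0697 and a 95% interval from -0.39 to -0.07. The adjusted p-value from edgeR was 0.258, and its p-value ranked 572 among the genes tested. Of the 10 markers, Tie1 was the one with an unadjusted p-value under 0.05 in all 15 other settings, where its log2 fold change stayed between -0.26 and -0.19.

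Tek, also known as Tie2, is the receptor of the angiopoietins. Its WT values were 69.4, 67.6 and 68.8 CPM, the tightest of the 10 markers with a coefficient of variation of 1.31%. The M92KO values were 56.1, 73.2 and 57.5 CPM, so that 2 mice lay under the whole WT range and 1 above it. The log2 fold change was -0.14 with a 95% interval from -0.38 to 0.10 (adjusted p = 0.645 from edgeR). It was -0.27 without the second M92KO library, where its unadjusted p-value was under 0.05, and -0.07 and -0.09 without the first and the third. The ratio of Tek to Tie1 CPM ran from 0.505 to 0.531 in WT and from 0.486 to 0.623 in M92KO muscle, so the groups overlapped.

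The RefSeq table of GRCm38.p6 held promoters, from 250 bases before to 50 bases after the transcription start, for 6 of the 10 markers (Tie1, Flt1, Kdr, Tek, Emcn and Cldn5). Those of Tie1 and Flt1, whose M92KO values lay below the WT values, are shown with that of Kdr, whose group means were close, so that the 3 receptor genes can be compared. ETS factors such as Erg and Fli1, which maintain endothelial identity, bind a core of GGAA, and capitals mark GGAA and its reverse complement TTCC on the strand of the gene.
Tie1 promoter, chr4:118489800-118490099, minus strand: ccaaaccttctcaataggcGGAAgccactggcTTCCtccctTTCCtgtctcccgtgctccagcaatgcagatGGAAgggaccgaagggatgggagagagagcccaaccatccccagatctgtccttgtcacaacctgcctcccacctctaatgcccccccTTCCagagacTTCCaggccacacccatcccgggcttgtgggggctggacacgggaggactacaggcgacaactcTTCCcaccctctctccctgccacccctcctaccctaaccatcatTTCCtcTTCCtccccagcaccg
Flt1 promoter, chr5:147725962-147726261, minus strand: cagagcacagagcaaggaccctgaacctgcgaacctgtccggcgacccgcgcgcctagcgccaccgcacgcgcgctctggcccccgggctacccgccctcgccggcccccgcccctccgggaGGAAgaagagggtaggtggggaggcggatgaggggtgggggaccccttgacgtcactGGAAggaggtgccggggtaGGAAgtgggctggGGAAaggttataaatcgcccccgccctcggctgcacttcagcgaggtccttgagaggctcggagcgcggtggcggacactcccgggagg
Kdr promoter, chr5:75978406-75978705, minus strand: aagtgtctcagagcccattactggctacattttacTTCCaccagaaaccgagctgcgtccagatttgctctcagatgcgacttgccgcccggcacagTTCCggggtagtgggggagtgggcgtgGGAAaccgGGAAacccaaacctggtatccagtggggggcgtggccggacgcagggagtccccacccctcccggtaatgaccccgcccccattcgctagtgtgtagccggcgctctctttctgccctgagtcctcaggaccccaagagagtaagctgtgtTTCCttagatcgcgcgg

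GGAA or TTCC occurred 9 times in the Tie1 window, 4 times in that of Flt1 and 5 times in that of Kdr. The median was 3 over all 32851 promoters of the same length in the table. In the GENCODE M21 annotation, used below for gene positions, Tie1 begins upstream of the RefSeq start, at 118490061. Most of the Tie1 window thus lies within the gene in that annotation. The windows of Emcn and Tek held 6 and 2 matches and that of Cldn5 held 0, while 96.0% of all promoters held at least 1. The sequence CACCC or GGGTG, a core bound by Krüppel-like factors, occurred 3 times in the Tie1 window, 2 times in that of Cldn5, once in those of Flt1, Kdr and Tek and 0 times in that of Emcn, and 57.5% of all promoters held it. The letters of the 2 motifs can share a base at their ends. These matches describe the sequence and are not measured binding sites.

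Cdh5 encodes VE-cadherin, the adhesion molecule of endothelial adherens junctions. It stood at 237, 253 and 224 CPM in WT and at 188, 235 and 195 CPM in M92KO muscle. The second M92KO mouse lay inside the WT range and the other M92KO mice under it. The log2 fold change was -0.21 with a 95% interval from -0.43 to 0.02 (adjusted p = 0.443 from edgeR). Without the second M92KO library it was -0.31, and without the first -0.14.

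Pecam1 encodes CD31, an adhesion molecule of endothelial contacts that platelets and leukocytes carry too. It stood at 173, 188 and 177 CPM in WT and at 147, 196 and 165 CPM in M92KO muscle. The M92KO values spread over both sides of the WT range, and the log2 fold change was -0.08 with a 95% interval from -0.32 to 0.16 (adjusted p = 0.804 from edgeR). Without the first M92KO library it was 0.01 and without the second it was -0.20. The 5 platelet genes together reached at most 7.35 CPM in a library, and the 9 macrophage and leukocyte genes between 88.8 and 128 CPM.

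Cldn5 encodes claudin-5, the main tight junction protein of endothelium. It had the largest fitted difference of the 10 markers and, in WT, the widest relative spread. Its values were 23.5, 54.0 and 34.4 CPM in WT and 31.1, 27.5 and 21.3 CPM in M92KO muscle. The first WT mouse lay within the M92KO range, and the coefficient of variation was 41.4% in WT, against 18.6% in M92KO muscle. The log2 fold change was -0.48 with a 95% interval from -1.10 to 0.13 (adjusted p = 0.522 from edgeR). It ranged from -0.12 without the second WT library to -0.73 without the first.

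Esam encodes an immunoglobulin-like adhesion molecule of endothelial tight junctions. It stood at 68.8, 79.8 and 81.4 CPM in WT and at 72.6, 65.7 and 68.2 CPM in M92KO muscle. The first WT mouse lay within the M92KO range, and the other WT mice were above it. The log2 fold change was -0.16 with a 95% interval from -0.35 to 0.03 (adjusted p = 0.507 from edgeR).

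Vwf encodes von Willebrand factor, the clotting protein that endothelium stores and secretes. It stood at 47.5, 49.7 and 39.4 CPM in WT and at 35.2, 51.5 and 38.8 CPM in M92KO muscle, with overlapping groups. The log2 fold change was -0.12 with a 95% interval from -0.45 to 0.21 (adjusted p = 0.791 from edgeR). Without the second M92KO library it was -0.30 and without the first -0.01.

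Emcn encodes endomucin, a surface sialomucin of capillary and venous endothelium. It stood at 34.5, 36.6 and 33.1 CPM in WT and at 36.2, 44.4 and 30.9 CPM in M92KO muscle, and was the 1 marker with a fitted difference above 0. The log2 fold change was 0.10 with a 95% interval from -0.18 to 0.38 (adjusted p = 0.803 from edgeR). Without the second M92KO library it was -0.05, and without the third 0.22.

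Most markers were highest in the same M92KO library, and the share of all genes with that order was not counted. The second M92KO library held the highest M92KO value of 8 of the 10 markers, with Cldn5 and Esam as the exceptions. The third M92KO library lay above the M92KO mean for 0 markers, and the first held the lowest M92KO value for 6. In WT the second library held the highest value for 6 markers and the lowest for 2 (Tek and Tie1). On the log2 scale, with each gene centred on its mean over the 6 libraries, the mean of the 10 markers was 0.01, 0.18 and 0.05 in WT and -0.14, 0.09 and -0.19 in M92KO muscle. The medians, which Cldn5 moves less, were 0.03, 0.10 and 0.05 in WT and -0.17, 0.13 and -0.17 in M92KO muscle. The red cell genes, 4 globin genes and Alas2 of heme synthesis, summed to 214, 223 and 74.0 CPM in WT and to 330, 143 and 336 CPM in M92KO muscle. The library with the highest marker sum had the lowest red cell sum among the M92KO mice and the highest among the WT mice. The fibroblast genes summed to 2337, 1773 and 1808 CPM in WT and to 1207, 1655 and 1594 CPM in M92KO muscle. The library with the lowest marker sum had the lowest fibroblast sum in M92KO and the highest in WT. The part of red cell and fibroblast RNA in the marker values was not tested.

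**Figure D3:**
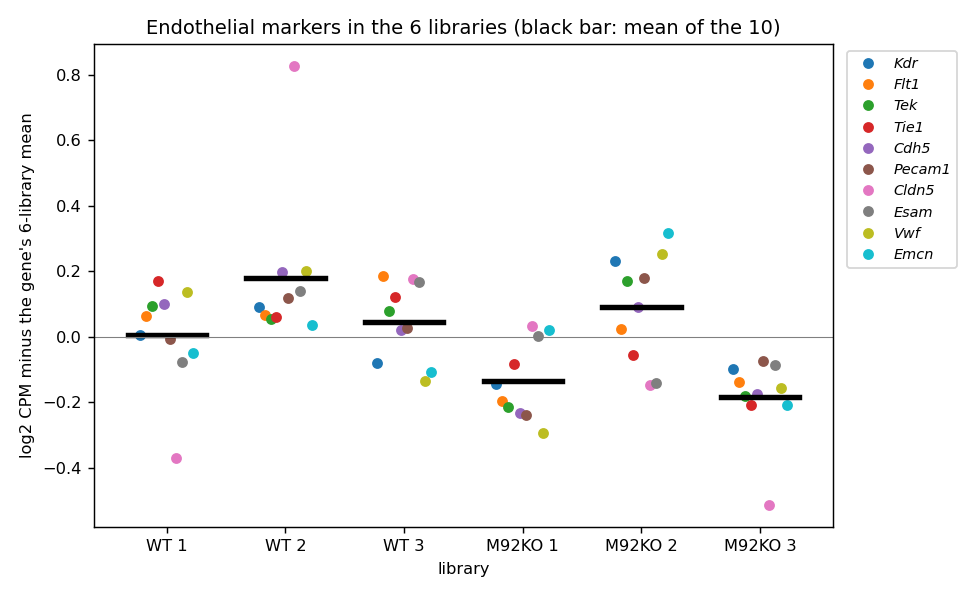
Log2 CPM of each endothelial marker minus its mean over the 6 libraries (vertical axis) for the 3 WT and 3 M92KO libraries (horizontal axis), with 1 coloured point per gene and a black bar at the mean of the 10. The bar is at 0.09 in the second M92KO library and at -0.14 and -0.19 in the other M92KO libraries.

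The RMS difference between each marker's centred profile and the mean profile of the 10 was smallest for Cdh5 (0.0568 on the log2 scale) and largest for Cldn5 (0.359). Among 13309 other genes with a mean of at least 1 CPM, the 5 with the smallest RMS difference from the mean profile were Rabgap1l (0.0225), Zc3h13 (0.0316), Mideas (0.0363), Gm12426 (0.0368) and Abitram (0.0426), over 6 libraries. These 5 genes are in none of the marker lists, and their own log2 fold changes lay between -0.19 and -0.11. They were picked by closeness to this profile, so their fold changes largely follow from the choice. The mean profile includes each marker itself but none of the 13309 other genes. The mean profile averages out the variation of single genes, and its total range is small.

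Levels were compared between genes per kilobase of the longest annotated protein-coding transcript (GENCODE M21). Cdh5 was the highest in WT with 59.6 ± 3.71 CPM per kb (SD, n = 3), followed by Pecam1 with 52.2 ± 2.31 and, at an equal 41.1, Esam and Kdr. Flt1 (33.8 ± 1.63), Tie1 (31.3 ± 1.18) and Cldn5 (26.3 ± 10.9) came next. Tek (14.7 ± 0.193), Emcn (13.4 ± 0.674) and Vwf (5.15 ± 0.615 CPM per kb) were the lowest. In WT the ranges of neighbouring genes overlapped for Esam and Kdr and for Tie1 and Cldn5, and were apart for the other 7 neighbouring pairs. The M92KO order was the same except that Kdr stood above Esam and Emcn above Tek, and the ranges of both those pairs overlapped in M92KO muscle.

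**Figure D4:**
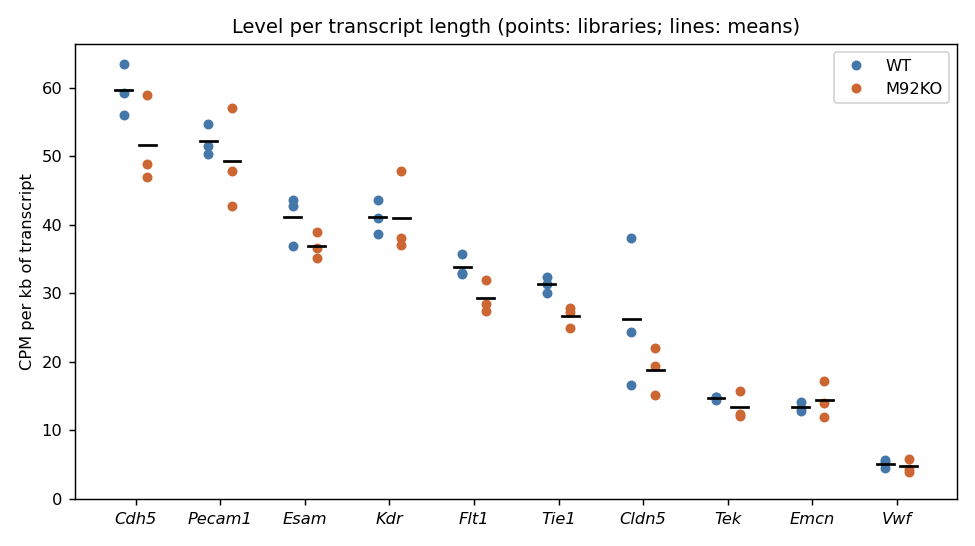
CPM per kilobase of transcript (vertical axis, starting at 0) for each endothelial marker (horizontal axis, in WT order) in WT (blue) and M92KO (orange) libraries, with lines at the group means. Cdh5 and Pecam1 lead in both genotypes, and Vwf is the lowest at 5.15 in WT and 4.74 in M92KO muscle.

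The 3′-UTRs of the markers were searched for the seed sites of miR-92b. A microRNA pairs with its targets mainly through its seed (bases 2 to 8), and the mature sequences from RefSeq (GRCm38.p6) are shown with the seed in capitals.
mmu-miR-92b-3p: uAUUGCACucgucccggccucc
mmu-miR-92b-5p: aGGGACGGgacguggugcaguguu
The search used GTGCAAT and TGCAATA for miR-92b-3p and CCGTCCC and CGTCCCA for miR-92b-5p, on the transcript strand. The longest annotated 3′-UTR of each marker, from 537 bases in Esam to 3971 bases in Flt1, held 0 matches to either arm. Of the 13679 genes tested that had an annotated 3′-UTR, 13.8% held a match to miR-92b-3p and 5.56% one to miR-92b-5p. Other 3′-UTRs and other kinds of pairing were not searched, and Mir92b itself was not analysed here.

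All 10 markers matched GENCODE M21 (GRCm38), and 0 of them had an exon that overlapped another gene's. Tie1 (ENSMUSG00000033191) lies on the minus strand of chromosome 4 from 118471191 to 118490061, and Tek (ENSMUSG00000006386) on the plus strand of chromosome 4 from 94739289 to 94874976. Flt1 (ENSMUSG00000029648) lies on the minus strand of chromosome 5 from 147561604 to 147726011, and Kdr (ENSMUSG00000062960) on the same strand and chromosome from 75932827 to 75978458. Cdh5 (ENSMUSG00000031871) lies on chromosome 8 from 104101625 to 104144511 and Cldn5 (ENSMUSG00000041378) on chromosome 16 from 18776847 to 18778262, both on the plus strand. Pecam1 (ENSMUSG00000020717) lies on the minus strand of chromosome 11 from 106654217 to 106750628. On plus strands, Vwf (ENSMUSG00000001930) lies on chromosome 6 from 125546774 to 125686679, Emcn (ENSMUSG00000054690) on chromosome 3 from 137341067 to 137432185 and Esam (ENSMUSG00000001946) on chromosome 9 from 37528078 to 37538319.

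Further lists of vascular genes were set beside the markers, and none of their genes passed the adjusted threshold in edgeR. Their counts at an unadjusted p-value under 0.05 stand beside 6.92% lower and 5.47% higher among all genes tested. Among 15 other pan-endothelial genes, 5 were lower (Arhgef15, Rasip1, S1pr1, Nos3 and Robo4) and 0 higher at an unadjusted p-value under 0.05. Of the 15, 10 lay below 0 and 5 above (Myct1, Egfl7, Podxl, Cd34 and Adgrl4), up to 0.30 for Myct1. The list median was -0.05 (-0.10 without the third WT or the second M92KO library). Arhgef15 stood at 65.0, 65.4 and 63.0 CPM in WT and at 54.7, 51.5 and 53.0 CPM in M92KO muscle (log2 fold change -0.28, adjusted p = 0.179 from edgeR). Rasip1, a Ras-interacting protein needed for vessel lumens, had a log2 fold change of -0.37 (adjusted p = 0.188). S1pr1, the sphingosine-1-phosphate receptor that steadies endothelial junctions, had one of -0.56 (adjusted p = 0.214). It stood at 99.6, 149 and 149 CPM in WT and at 84.2, 96.1 and 89.2 CPM in M92KO muscle. The groups were apart, with the first WT mouse close to the second M92KO mouse.

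Of 12 ligands and partners of the VEGF and angiopoietin receptors, 3 were lower (Ptprb, Nrp2 and Vegfc) and 1 was higher (Vegfa) at an unadjusted p-value under 0.05, and the median was -0.12 (-0.04 without the second WT and -0.06 without the second M92KO library). Ptprb encodes VE-PTP, the endothelial phosphatase that acts on Tek and VE-cadherin. It stood at 275, 287 and 265 CPM in WT and at 178, 221 and 210 CPM in M92KO muscle, with the groups apart and a log2 fold change of -0.44 (95% interval -0.65 to -0.23, adjusted p = 0.179 from edgeR). Vegfa, the ligand that muscle fibres supply, stood at 788, 815 and 717 CPM in WT and at 1072, 874 and 908 CPM in M92KO muscle. All M92KO values of Vegfa were above the WT values (log2 fold change 0.30, 95% interval 0.08 to 0.52, adjusted p = 0.287 from edgeR). The VEGF co-receptor gene Nrp2 had a log2 fold change of -0.34 (adjusted p = 0.255).

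The 2 widest differences of single genes, those of Klf2 and Klf4, were in the list of 12 endothelial transcription factors. Of the 12, 4 were lower (Klf2, Klf4, Bcl6b and Gata2) and 0 higher at an unadjusted p-value under 0.05, with a median of -0.22. In the list 9 lay below 0 and 3 above (Hhex, Sox18 and Lyl1). The medians of the lymphatic (-0.44), fibroblast (-0.36), arterial (-0.23), platelet (0.30) and red cell (0.66) lists were larger in size. Klf2, which blood flow induces in endothelium, stood at 61.2, 137 and 210 CPM in WT and at 30.8, 32.4 and 45.8 CPM in M92KO muscle. The groups were apart, and the WT mice alone differed several-fold. Its log2 fold change was -1.90 (95% interval -2.77 to -1.03, adjusted p = 0.179 from edgeR). Klf4, a related flow-responsive factor, had one of -1.73 (95% interval -2.69 to -0.77, adjusted p = 0.193). Its values were 48.5, 101 and 146 CPM in WT and 17.8, 25.9 and 45.1 CPM in M92KO muscle, again apart. Only a small distance lay between the first WT and the third M92KO mouse, and the coefficient of variation in WT was 49.6%. Bcl6b had a log2 fold change of -0.75 (adjusted p = 0.214). It stood at 40.6, 70.3 and 58.2 CPM in WT and at 35.9, 37.5 and 26.9 CPM in M92KO muscle. Here too the first WT mouse was close to the second M92KO mouse. Both Klf2 and Klf4 are also made outside the endothelium, and the cell type behind these values was not measured.

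Vessel subtypes gave mixed values, beside 6.92% lower and 5.47% higher among all genes tested at an unadjusted p-value under 0.05. Of 12 capillary genes, 1 was lower (Aqp1) and 3 were higher (Cd300lg, Rgcc and Ly6c1) at an unadjusted p-value under 0.05, with a median of 0.02 (-0.07 without the second M92KO and 0.06 without the first M92KO library). Cd300lg, a capillary surface glycoprotein, stood at 68.4, 74.5 and 70.2 CPM in WT and at 83.3, 81.5 and 79.6 CPM in M92KO muscle (log2 fold change 0.20, adjusted p = 0.285 from edgeR). Of 8 arterial genes, 3 were lower (Efnb2, Dll4 and Gja5) and 0 higher, with a median of -0.23. That median was -0.34 without the second M92KO and -0.20 without the first M92KO library. In this list 7 genes lay below 0 and 1 above, Gja4, whose log2 fold change of 0.48 was the largest in size. The arterial ligands Efnb2 and Dll4 had log2 fold changes of -0.33 (adjusted p = 0.266) and -0.41 (adjusted p = 0.328), and the connexin gene Gja5 one of -0.28 (adjusted p = 0.392). Of 8 venous and adhesion genes, 7 were tested, with a median of 0.02 and 0 at an unadjusted p-value under 0.05. With 1 library left out, that median ran from -0.06 (second M92KO) to 0.11 (first M92KO). Those with the smallest p-values were Nr2f2, Icam1 and Plvap, at log2 fold changes of -0.19, 0.26 and 0.23. All 6 lymphatic genes were below 0, with a median of -0.44 (-0.73 without the second M92KO and -0.26 without the first M92KO library), and 1 (Mmrn1, log2 fold change -1.13, adjusted p = 0.201) had an unadjusted p-value under 0.05. Reln and Ccl21a followed at -0.53 and -1.0, and the whole lymphatic list summed to at most 26.4 CPM in a library. The cell type behind the values of this list was not measured.

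Cells that lie next to the endothelium were described with the same fit and beside the same shares of all genes tested (6.92% lower, 5.47% higher). Of 12 mural cell genes (pericytes and smooth muscle), 2 were lower (Rgs5 and Mcam) and 1 was higher (Cspg4) at an unadjusted p-value under 0.05, and the median was -0.01 (-0.08 without the second M92KO and 0.05 without the first M92KO library). Of 8 fibroblast genes, 3 were lower (Dcn, Col1a2 and Col1a1) and 0 higher, and the 1 gene above 0 was Pi16, at 0.12. The fibroblast median was -0.36 (-0.17 without the first M92KO and -0.44 without the second M92KO library). Of 9 macrophage and leukocyte genes, 1 was lower (Ptprc), with Mrc1 and Cd163 next at -0.39 and -0.35. The 1 gene of this list above 0 was Cd68, at 0.42. The macrophage and leukocyte median was -0.22 (-0.07 without the first M92KO and -0.33 without the second WT library). The 5 red cell genes had a median of 0.66 and the 4 platelet genes tested (led by Itga2b, Pf4 and Ppbp) one of 0.30, with 0 genes at an unadjusted p-value under 0.05 in either list. The platelet median was 0.03 without the first M92KO library and 0.48 without the second. The red cell median ran from 0.30 without the third WT library to 0.97 without the second M92KO library. Hbb-bt, Hba-a1 and Hbb-bs differ by few bases from other globin genes, so their reads may be split between copies. Of the 10 muscle fibre genes, 1 was higher (Myh2, log2 fold change 0.70, adjusted p = 0.314). Myh2 stood at 2124, 2239 and 1612 CPM in WT and at 2018, 3575 and 4099 CPM in M92KO muscle, so the groups overlapped. The muscle fibre median was -0.05 (-0.10 without the first WT and 0.02 without the third WT library). Differences between these lists and the endothelial markers were not tested.

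**Figure D5:**
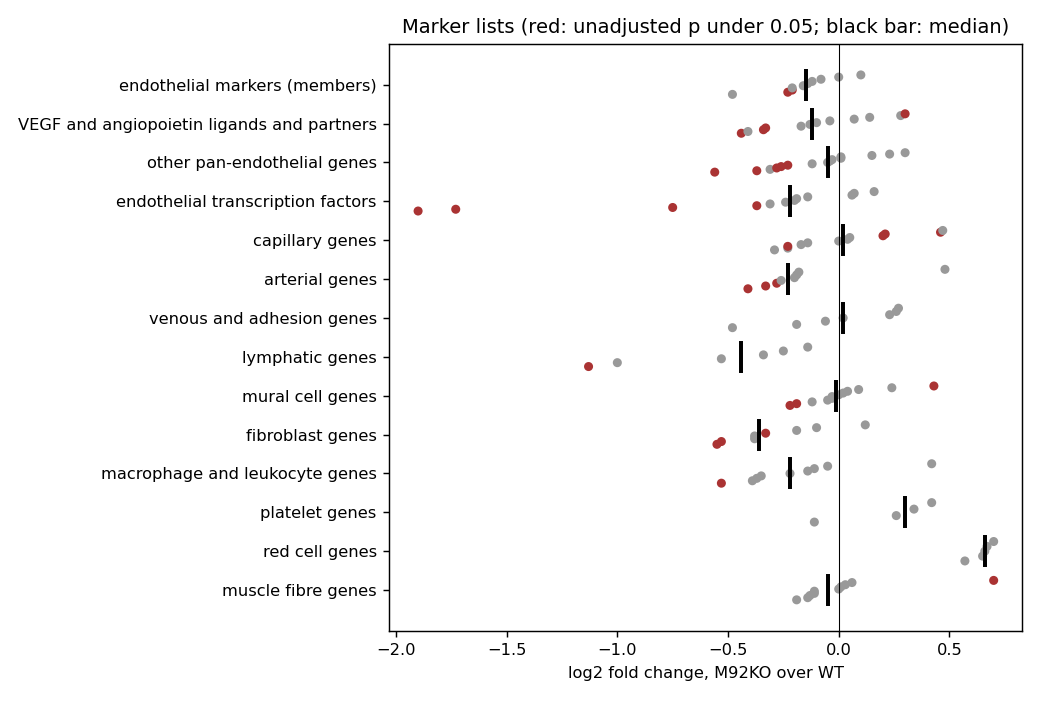
Fitted log2 fold change of M92KO over WT (horizontal axis) for every tested gene of the 14 lists (1 row each), with red points for an unadjusted p-value under 0.05 and a black bar at the median. The endothelial markers sit between -0.48 and 0.10, and the 2 points farthest to the left are Klf2 (-1.90) and Klf4 (-1.73).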

How the data were processed

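Total RNA of the Gas muscle was sequenced from 3 WT and 3 M92KO mice with a SMARTer kit, with 1 library each. The authors deposited raw counts of reads per gene symbol, without normalization or pooling. The submitters' processing notes name GRCm38 (mm10); the aligner, counter, strandedness and annotation are not given in the sources used here. Groups and replicate numbers came from the sample titles, which give no batch. The markers and the 14 lists (132 genes) were chosen with earlier results of these data known.

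Counts were filtered with filterByExpr (minimum count 10, minimum total count 15), normalized with TMM and compared by edgeR 4.0.16 (glmQLFit, glmQLFTest) in R 4.3.3, with Benjamini-Hochberg adjustment over 15788 genes, a threshold of 0.05 and 95% intervals from the fit. The design has no covariate. p-values measure only the spread between these libraries. The scripts were tested on simulated data. The limma steps of the supplementary methods (quantile normalization, log2 of the count plus 1) and DESeq2 1.42.0 were alternatives, with limma 3.58.1. Length and GC content came from GENCODE M21 (93.5% of genes tested).

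Named were the 10 markers, the 3 genes of lowest p-value in each other list, the 5 nearest profiles, and Acta1, Ckm and Myh4 as tissue checks (Ckm had a log2 fold change of -0.11 and Myh4 one of 0.06). Atp2a1 and Actn3 fell under this rule, at -0.13 and -0.14. Other genes are named where a count of 5 or fewer needed them, after their values were seen. Python 3.11.15, pandas 2.3.3, scipy 1.17.1 and matplotlib 3.10.9 served for tables and plots.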

Additional observations from a re-analysis of the deposited data

How the results depend on the processing

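The number of genes with an adjusted p-value under 0.05 was 0 in the edgeR fit and moved with the method, to 312 in DESeq2's Wald test, 42 in the limma steps, 6 without a filter on low counts and 2 with the replicate block, with or without offsets for GC content and length. With 1 library left out it ran from 0 to 401, the highest without the first M92KO library. None of the 10 endothelial markers was among these genes in any of the 15 settings. The markers with an unadjusted p-value under 0.05 numbered 2 in the main test, 2 or 3 in the settings with every library, and 1 to 6 with 1 library left out, the highest without the second M92KO library. The replicate block named Cdh5 and Tie1 in place of Flt1 and Tie1, with a smallest adjusted p-value of 0.406. The sample titles link same-numbered WT and M92KO libraries by the number only. Over all genes tested, their deviations from the group means correlated at 0.0742, 0.045 and 0.0148. A batch that acts on part of the genes was not tested. The median of the markers stayed between -0.16 and -0.13 in the settings with every library and between -0.27 and -0.11 with 1 left out.

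Kdr changed sign from a main value of 0.00, to 0.04 with the GC and length offsets, 0.04 with those and the block and 0.00 in thinned libraries, and from -0.13 to 0.07 with a library left out. Pecam1 ran from -0.20 to 0.01 and Emcn from -0.05 to 0.22 with a library left out. The cause was not tested. With 3 libraries a group, the 95% intervals run from -0.25 to 0.24 for Kdr and from -1.10 to 0.13 for Cldn5 on the log2 scale. The lowest count of a marker was 774, and counting error was not separated from the spread between mice.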
